A study of Drosophila melanogaster with 4 samples.

Results

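The focal H3K36me2 clusters of chromosome arm 3L are the short enriched regions of that arm in ML-DmBG3-c2 cells of Drosophila melanogaster, mapped by chromatin immunoprecipitation and sequencing (ChIP-seq). A region belonged to the set if the combined list of the replicate set named it as enrichment, it was shorter than 10000 bp and its midpoint lay outside the centromere-proximal 2 Mb of the arm. The rule gave 1069 clusters, out of 6396 enriched clusters of the whole series and 1153 on the same segment, which ran from position 1 to 22543557 of 3L (FlyBase r5). The other 84 clusters of the segment were 10 kb or longer.

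The study compared 2 ChIP replicates, made with a mouse monoclonal antibody to H3K36me2, with 2 input DNA replicates. All samples came from the same cell line, which derives from the central nervous system of the third larval instar, carries the genotype y v f mal and is of unknown sex; no treatment is named. Replicates were told apart by their titles, while the free-text description of ChIP replicate 1 calls it input DNA and that of ChIP replicate 2 names both kinds of DNA. Which is right cannot be told from the region lists, so the main results are given for each replicate separately. Nothing in the labels says that the replicates were separate cultures, so their spread may be technical. The lists hold positions and the authors' scores with no read counts, and the depth behind each cluster is unknown.

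H3K36me2 is the dimethylated form of lysine K36 on the tail of histone H3. In Drosophila the methyltransferases Ash1 and NSD place this mark, and Set2 adds the trimethyl form, which is typical of the bodies of transcribed genes. Methylation of K36 hinders the Polycomb enzyme E(z) from methylating K27 on the same histone tail, so the mark is studied as a counterpart to Polycomb silencing. Genes were not assigned to the clusters here, because the positions are on FlyBase r5 and no gene annotation of that release was used.

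The members were short, and their scores differed widely. Their length ranged from 1001 to 9964 bp with a median of 2718 bp, and 50% of the list lay between 1874 and 4545 bp. The authors' score, on a scale that neither the labels nor the file headers explain, ranged from 0.00717 to 3.08 with a median of 0.631. Longer members had higher scores, with a Spearman's rho of 0.842 across the 1069 members. Members covered 3.64 Mb, or 16.1% of the segment, and held 73.6% of the enriched sequence of the segment, with the rest in the clusters of 10 kb or more. Members were selected on their length and their presence in the combined list, so these values describe the choice and were not tested. The last cluster inside the length limit measured 9964 bp (score 1.40; 1.49 in replicate 1 and 1.48 in replicate 2), and the first outside it measured 10003 bp (score 1.63; 1.59 and 1.69).

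The same rule was applied to each replicate list. It gave 920 clusters in replicate 1 and 927 in replicate 2, or 923.5 ± 4.95 (SD, n = 2). Replicate 1 clusters had a median of 3004.5 bp and a median score of 0.840, and replicate 2 clusters had 2824 bp and 0.841. They took up 14.8% of the segment in the one list and 14.5% in the other. The combined list therefore held more focal clusters than either replicate, with a shorter median length and a lower median score.

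Members were spread along the whole arm, but not evenly. Across the 22 full 1 Mb blocks, numbered from the distal end, a block held 47.8 ± 15.2 members (SD over blocks), with a lowest count of 22 and a highest of 79. The densest block was the ninth, from 8000001 to 9000000, with 79 members that covered 27.4% of it. It was followed by the block from 16000001 to 17000000 with 67 members and that from 9000001 to 10000000 with 66. The sparsest were the block from 10000001 to 11000000 with 22 members, that from 5000001 to 6000000 with 26 and that from 18000001 to 19000000 with 27. Dense and sparse blocks thus lay side by side: the block with 66 members adjoined the one with 22. The densest block held 3.59 times as many members as the sparsest.

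Counts per block ran alike in the replicates, but not every block kept its rank from the combined list. By the same rule, the densest block held 72 focal clusters in replicate 1 and 73 in replicate 2. The block from 10000001 to 11000000 held 21 and 16, and the block from 5000001 to 6000000 held 17 and 18. The blocks from 16000001 to 17000000 (53 and 53) and from 9000001 to 10000000 (52 and 53) ranked lower than in the combined list. Both held fewer than the block from 1 to 1000000 (57 and 54) and that from 19000001 to 20000000 (56 and 62). The block from 18000001 to 19000000 (24 and 25) held more than that from 13000001 to 14000000 (17 and 21). Over the 22 blocks the counts of the replicates had a Pearson's r of 0.952 and a Spearman's rho of 0.933, given as a description of neighbouring blocks from libraries of the same cells. The largest difference was 11 clusters, in the block from 2000001 to 3000000, where replicate 1 had 41 and replicate 2 had 30. Blocks with many members also tended to hold more clusters of 10 kb or more (Spearman's rho of 0.490 over 22 blocks). The blocks from 6000001 to 7000000 and from 13000001 to 14000000, with 34 and 28 members, held 0 clusters of 10 kb or more.

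**Figure D1:**
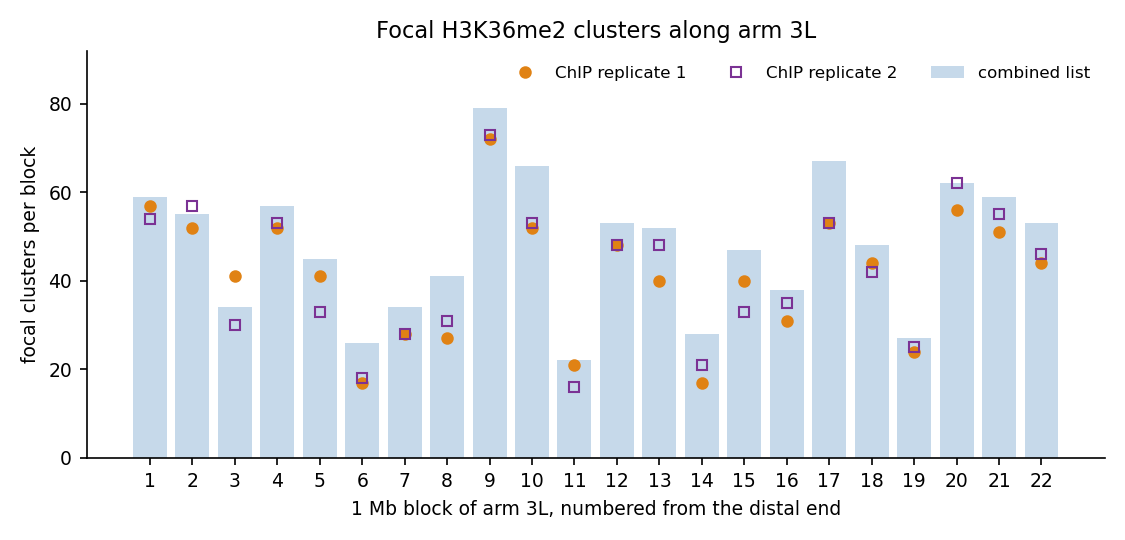
Focal clusters per 1 Mb block of arm 3L (y axis, count), with blocks in order from the distal end on the x axis; bars are the combined list, filled circles ChIP replicate 1 and open squares ChIP replicate 2. Counts in the combined list run between 22 and 79, and the circles and squares follow the bars from block to block.

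Most members had a neighbour within a few kilobases. The distance between the edges of a member and the nearest enriched cluster of any length had a median of 1456 bp, with 50% of members between 572 and 3228 bp. In all, 907 members (84.8%) had a cluster nearer than 5 kb, and 407 had one nearer than 1 kb. The nearest neighbour of a focal cluster had a median distance of 1829 bp for replicate 1 and 1801 bp for replicate 2, further than in the combined list, which holds more clusters. Clusters of 10 kb or more were themselves few, at 84 of the 1153 clusters of the segment. The median distance from a member to the nearest of them was 72.1 kb, and 104 members (9.73%) lay within 5 kb of one. In the combined list the 104 members beside a long cluster and the other members had the same median score, 0.631. Of the members that a replicate held, those beside a long cluster had a median of 0.898 in each replicate, and the others had 0.854 in replicate 1 and 0.848 in replicate 2.

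**Figure D2:**
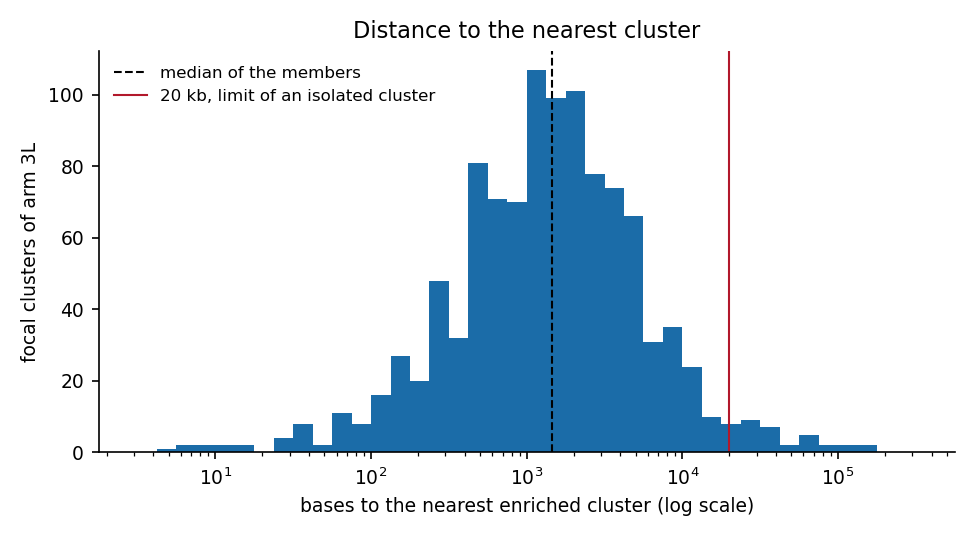
Histogram of the distance between each of the 1069 focal clusters and the nearest enriched cluster of the combined list (x axis, bases, log scale; y axis, number of clusters). The dashed line marks the median of 1456 bp, and 35 clusters lie beyond the solid line at 20 kb.

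Short gaps alternated with long empty stretches. Between successive clusters of any length on the segment there were 1152 gaps, with a median of 3121.5 bp and a mean of 15194 bp. The 99 gaps of 50 kb or more summed to 10.7 Mb, which is 47.3% of the segment. Replicate 1 had 101 such gaps over 50.0% of the segment, and replicate 2 had 101 over 50.8%. These gaps divided the clusters of the combined list into 100 stretches, with a median of 6.5 clusters and a median span of 62.2 kb, and 14 stretches consisted of a single cluster. The richest stretch ran from 7773256 to 8720989 and held 86 clusters over 948 kb. In the same place the richest stretch of replicate 1 began at 8037629 and held 59 clusters, and that of replicate 2 began at 8014775 and held 60. Absence of clusters means only that no region passed the authors' threshold.

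Isolated members were few. A member was called isolated if no other enriched cluster lay within 20 kb of either edge, and 35 members (3.27%) met this. They were found in 20 of the 23 blocks, the last of which is the partial one at the proximal limit. By the same rule 35 focal clusters of replicate 1 (3.80%) and 46 of replicate 2 (4.96%) were isolated in their own lists. The block from 5000001 to 6000000, one of the sparsest, held 4 isolated members, more than any other.

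The most isolated members were found in both replicates. The member from 5336365 to 5340629 lay 167 kb from its nearest neighbour and scored 1.61 in replicate 1 and 1.66 in replicate 2, or 1.64 ± 0.0344 (SD, n = 2). The member from 18450009 to 18453957 lay 158 kb from the next cluster and scored 1.50 and 1.33. That from 13265635 to 13272503, at a distance of 105 kb, scored 1.95 and 2.16. In each replicate, clusters spanned no less than 93.0% of each of these 3. The most distal cluster of the arm, from 23460 to 28667, lay 104 kb from its only neighbour and scored 1.45 and 1.38. The last of these 5, from 12647479 to 12649701, was weaker at 0.468 and 0.682 and lay 76.9 kb from the next cluster.

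Many members stood in groups. A group was a chain of 3 or more members with gaps of at most 5 kb and no longer cluster between them. There were 139 groups with 637 members (59.6%), 117 pairs and 198 single members. The share depends on the gap allowed: with gaps of at most 2 kb it was 28.4%. A group had a median of 4 members and a median span of 18.7 kb, of which members covered a median of 71.9%. In their own lists, 444 focal clusters of replicate 1 (48.3%) and 469 of replicate 2 (50.6%) were grouped. The highest and the lowest score of a group differed by a median of 1.24.

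The largest group ran from 7327238 to 7381045, with 13 members over 53.8 kb. Its sixth member, from 7340999 to 7345942, scored highest, at 2.25 in replicate 1 and 2.11 in replicate 2. In the combined list it scored 2.18, and the members just before and after it scored 0.720 and 0.106. Replicate 1 held 7 of the 13 members and replicate 2 held 11; the 4 that were in replicate 2 alone scored 0.251 to 0.553 there.

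A group of 11 members from 14280845 to 14340296 differed more between the replicates. Replicate 1 held all 11 and replicate 2 held 4. The 4 shared members each scored higher in replicate 1: 0.856 against 0.683, 0.676 against 0.582, 1.08 against 0.827 and 0.802 against 0.586 in replicate 2. The 7 members of replicate 1 alone scored 0.474 to 0.652 there, and 2 of them lay in a single replicate 1 cluster of 3673 bp. In this stretch, replicate 1 was thus the higher at every member that could be compared.

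The other group of 11, from 20336902 to 20403644, was held by the replicates almost alike, with 9 members in replicate 1 and 10 in replicate 2. Its eighth member, from 20375990 to 20383371, scored 1.94 and 1.78, and 9 members were in both lists. Among all 139 groups, 81 had equal numbers of members in the replicates, 20 had more in replicate 1 and 38 had more in replicate 2. A difference of 3 or more members occurred in 7 groups, and the largest was the 7 of the group just described with all its members in replicate 1.

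**Figure D3:**
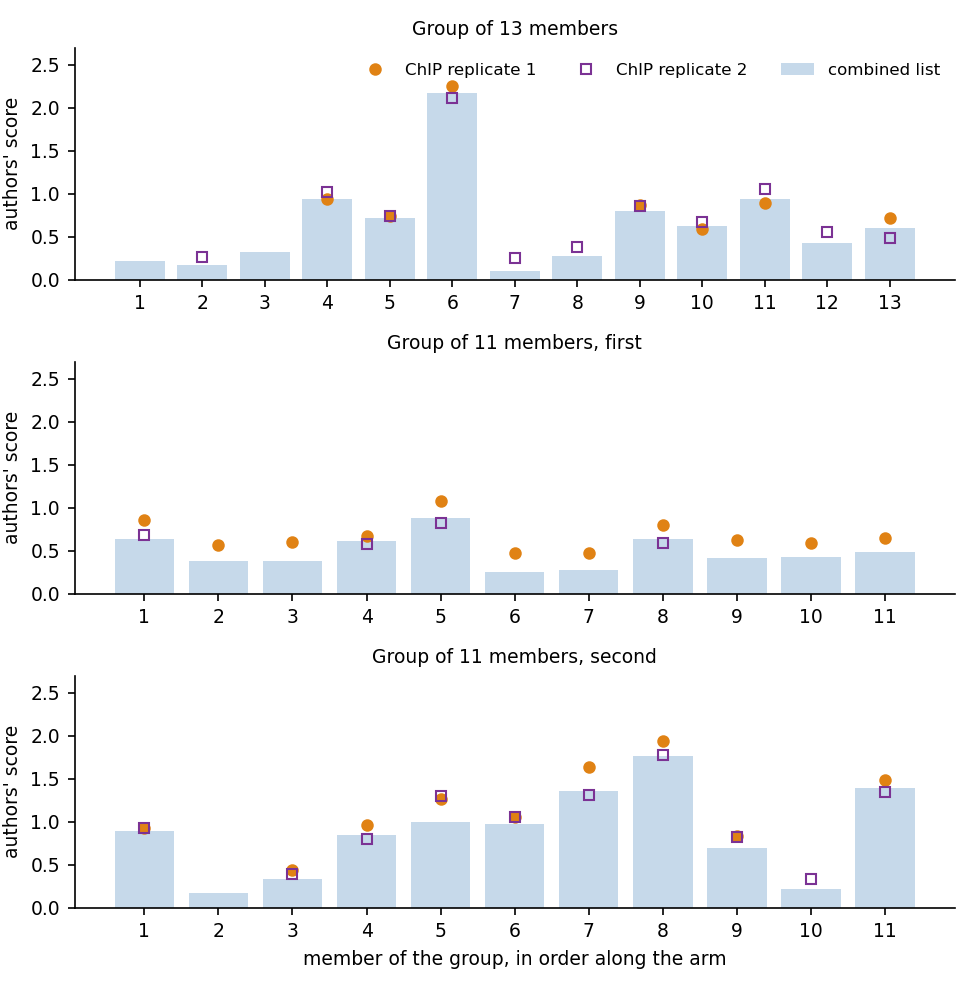
Authors' score (y axis) of each member of the 3 largest groups, in order along the arm (x axis); bars are the combined list, filled circles ChIP replicate 1 and open squares ChIP replicate 2, and a missing symbol means no overlapping cluster in that replicate. In the middle panel all 11 members carry a circle and 4 carry a square.

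Isolated members scored higher than grouped members in each replicate. In replicate 1 the matching clusters had a median score of 1.45 for the 27 isolated members it held and 0.867 for the 503 grouped ones. In replicate 2 the medians were 1.23 for 28 isolated members and 0.861 for 510 grouped ones. The difference averaged 0.472 ± 0.150 (SD, n = 2). That SD covers the scatter between the replicate lists only, not the uncertainty of a median over so few isolated members. The ranges overlapped widely, at 0.366 to 2.43 for isolated and 0.109 to 2.95 for grouped members in replicate 1, and at 0.278 to 2.20 and 0.0596 to 3.11 in replicate 2. In the combined list, which chose the members, the medians were 0.958 and 0.638, and that of the 397 members neither isolated nor in a group was 0.595.

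Isolated members were also longer. The matching clusters had a median length of 3916 bp for isolated and 3049 bp for grouped members in replicate 1. In replicate 2 these were 3934.5 bp and 2812 bp, a difference of 995 ± 181 bp (SD, n = 2). Among members of 3 kb to under 6 kb alone, which are 11 isolated and 199 grouped ones, the score difference was 0.302 ± 0.0848 (SD, n = 2). Isolated members were still the longer ones there, at 3961 bp against 3705.5 bp for grouped members in replicate 1 and 4153 bp against 3525 bp in replicate 2. No test was made over the 2 replicates, and members are not replicates, so these differences carry no p-value. The score did not rise steadily with distance. In the combined list the median was 0.638 for members with a neighbour nearer than 1 kb, 0.551 at 1 to 2 kb and 0.668 at 2 to 5 kb. It was 0.542 for the 91 members with a neighbour at 5 to 10 kb and 0.755 for the 36 at 10 to 20 kb. The 23 at 20 to 50 kb had a median of 1.25, and the 12 at 50 kb or more had 0.796. Moving the limit of isolation to 10 kb reduced the difference to 0.209, and moving it to 50 kb, which leaves 12 isolated members, reduced it to 0.219.

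The replicates held nearly the same share of isolated and of grouped members. Both replicates held 25 of 35 isolated members, or 71.4% (95% Wilson interval 54.9 to 83.7%), and 454 of 637 grouped ones, or 71.3% (67.6 to 74.6%). These intervals cover counting error only. Length divided the isolated members as it did the whole list: 23 of the 25 that measured 2 kb or more were in both replicates, and 2 of the 10 shorter ones were. Among all members the share in both was 29.7% from 1301 to 1999 bp and 84.1% from 2000 to 2999 bp. The split is thus not particular to isolated members. Of the 35, 5 were in neither replicate list.

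Most members were found again in the replicates. A cluster of each replicate list overlapped 751 of the 1069 members by at least 1 bp, or 70.3% (67.4 to 72.9%). Over all clusters of the series the same share was 73.4%, and for the 84 clusters of 10 kb or more on this segment it was 100% (95.6 to 100%). Another 99 members were in replicate 1 only, 92 in replicate 2 only and 127 (11.9%) in neither. The combined list belongs to the replicate set, so its overlap with the replicates is not independent evidence. Where a replicate held a member, it covered most of it, with a median of 96.4% of its length in replicate 1 and 94.5% in replicate 2. In the other direction, 904 of 920 focal clusters of replicate 1 (98.3%) and 920 of 927 of replicate 2 (99.2%) overlapped the combined list.

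Whether a member was found again went with its length and its score. Of the 91 members of 1001 to 1300 bp, 0 were in both replicates (Wilson interval 0 to 4.05%), and neither replicate list holds any cluster shorter than 1301 bp. This class was cut at that length, so its members could not meet a replicate cluster as short as themselves. Among members of 1301 to 1999 bp, 73 of 246 were in both, or 29.7% (24.3 to 35.7%). From 2000 to 2999 bp the share was 84.1% (79.2 to 88.1%), from 3000 to 3999 bp it was 95.3% and from 4000 to 5999 bp it was 97.2%. All 94 members of 6000 to 7999 bp were in both. By score, both replicates held 23.2% of the members in the lowest 25% of scores, 61.0% in the next 25%, 98.1% in the 25% above those and 98.5% in the highest 25%. Score and length rise together, and their parts in this were not tested.

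**Figure D4:**
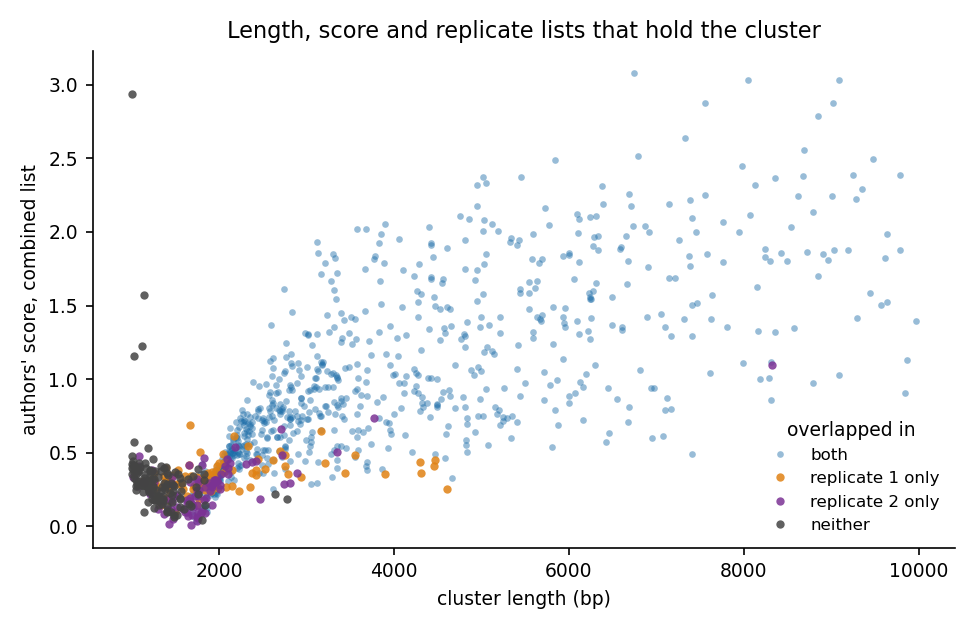
Authors' score in the combined list (y axis) against cluster length in bp (x axis) for the 1069 focal clusters of arm 3L, coloured by the replicate lists that overlap them. Clusters in neither replicate crowd at short lengths and low scores, apart from 2 between 2000 and 2999 bp and 4 short clusters that score between 1.16 and 2.94.

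A few members stood outside this pattern by score or by length. The 5 highest-scoring members in neither replicate measured 1001 to 1141 bp, below the shortest cluster of either replicate list. Their lengths thus followed the pattern, and only the 4 of them that scored above 1 departed from it, by score. The cluster from 7978593 to 7979593 measured 1001 bp, the shortest length in the list, and scored 2.94, the fourth highest of all members, with its nearest neighbour 35.2 kb away. Below it stood 20325842 to 20326982 (score 1.57), 11257523 to 11258636 (1.23), 19854846 to 19855872 (1.16) and 5560501 to 5561529 (0.576). The other members among the 5 shortest scored less, between 0.353 and 0.475, and were in neither replicate: they began at 9614649, 14065026, 8462022 and 8338125. Conversely, the cluster from 12416551 to 12424869, picked after its values were seen, was 8319 bp long and lay wholly within a replicate 2 cluster that scored 1.67, but no replicate 1 cluster overlapped it.

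Beside that short cluster, the highest-scoring members were found in both replicates. Their scores were nearly the same in each, except at the cluster from 21058058 to 21066105. The cluster from 435394 to 442135 scored 3.09 in replicate 1 and 3.08 in replicate 2, or 3.08 ± 0.0101 (SD, n = 2). That from 3201986 to 3211074 scored 3.07 and 3.07. Next came the cluster from 21058058 to 21066105 at 2.95 and 3.11, and the one from 18795648 to 18804670 at 2.94 and 2.89. These 4 strong clusters were 6742 to 9089 bp long and lay for no less than 95.7% of their length in clusters of each replicate.

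The 5 longest members did not have the 5 highest scores. The cluster from 8795031 to 8804994, at 9964 bp the longest, scored 1.49 in replicate 1 and 1.48 in replicate 2. That from 14535924 to 14545787 scored 1.13 and 1.26, and that from 9468943 to 9478784 scored 1.05 and 1.04. The clusters from 19997422 to 20007206 and from 20806685 to 20816469, equal in length at 9785 bp, differed in score: 2.41 and 2.36 for the one, 2.05 and 1.96 for the other. The difference between this equal-length pair was larger than that between the replicates of either.

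The replicates ordered the shared members alike. Across the 751 members in both, the scores of the matching clusters had a Spearman's rho of 0.925 and a Pearson's r of 0.947, as a description across clusters of the same 2 libraries. The mean score was 1.10 in replicate 1 and 1.07 in replicate 2, a difference of 0.0278, and single members differed with an SD of 0.194. Replicate 1 scored higher at 419 members and replicate 2 at 332. The median difference without regard to sign was 0.111. The largest gap was at the cluster from 16647201 to 16649067, with 1.73 in replicate 1 and 0.486 in replicate 2. There the replicate 1 cluster was 7785 bp long and the member 1867 bp, so that score belongs to a longer region. The next were the cluster from 8917098 to 8925393 (1.37 in replicate 1 and 2.20 in replicate 2) and that from 19061832 to 19071397 (1.67 and 0.881). These 3 were picked for their difference after it was seen.

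**Figure D5:**
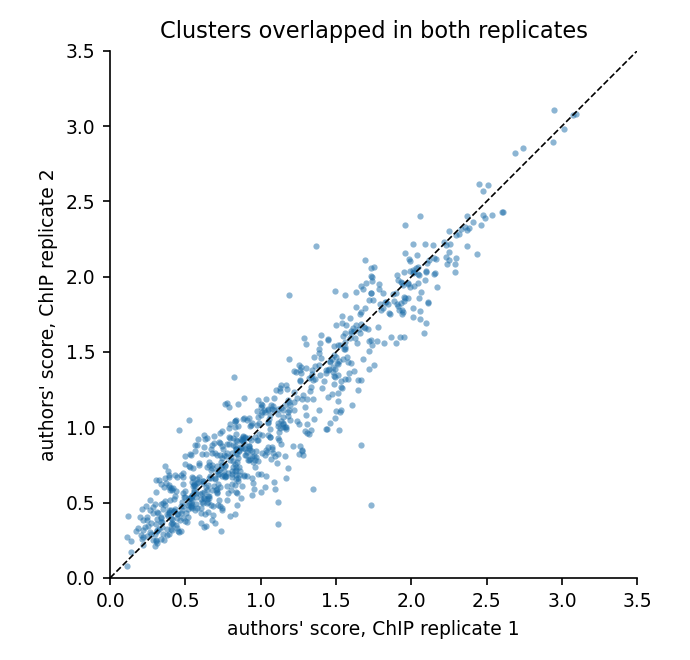
Authors' score of the matching cluster in ChIP replicate 1 (x axis) and ChIP replicate 2 (y axis) for the 751 focal clusters overlapped in both; the dashed line marks equal scores. Points follow the line, and the farthest from it has 1.73 in replicate 1 and 0.486 in replicate 2.

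Boundaries were placed closely. Between the matching clusters of the replicates the median distance was 121 bp at the start and 107 bp at the end, and in 90% of members it was at most 554 bp at the start and 644 bp at the end. Both ends lay within 200 bp of each other in 371 of the 751 members, or 49.4%. A replicate seldom joined or split members: 6 clusters in each replicate spanned 2 or more clusters of the combined list, while 24 members were split over several clusters in replicate 1 and 28 in replicate 2.

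Few pairs of close neighbouring members were seen joined in the replicates. There were 213 pairs of neighbouring members less than 1 kb apart, with a median gap of 481 bp. Only 6 of these pairs were joined in replicate 1, 4 in replicate 2 and 0 in both. In 110 of the 213 pairs a member was missing from at least 1 replicate, where the pair could not be seen as joined. In 101 pairs both members were separate clusters in both replicates. The same member of the pair scored higher in each replicate in 91 of these 101, or 90.1% (82.7 to 94.5%). The scores of the 2 members of a pair were unrelated in the combined list, with a Spearman's rho of -0.0196 over the 213 pairs. Along the arm, the score of a member and that of the next had a rho of 0.0286 over 1068 successive pairs.

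The focal clusters of 2L, 3R and X, taken by the same rule, gave a setting for these values. Arm 2R was not compared, so the values do not rank 3L among all arms. The rule leaves out the last 2 Mb of 2L and X and the first 2 Mb of 3R. Focal clusters covered 14.6% ± 0.163 of 3L, against 12.7% ± 0.0627 of 2L, 13.2% ± 0.0958 of 3R and 14.4% ± 0.535 of X (SD, n = 2 replicate lists). Their density was 41.0 ± 0.220 per Mb on 3L, against 36.9 ± 0.135 on 2L, 39.0 ± 0.628 on 3R and 41.1 ± 0.381 on X. In both measures 3L lay above 2L and 3R by more than the spread between the replicates, and from X it differed by less than the spread on X. The share of members in both replicates was 70.3% on 3L, 71.0% on 2L, 72.1% on 3R and 70.6% on X, within each other's Wilson intervals. Grouped clusters made up 49.4% ± 1.65 on 3L, 51.5% ± 2.82 on 2L, 47.7% ± 2.52 on 3R and 46.2% ± 0.934 on X. The arms share the same libraries, and these differences were not tested.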

How the data were processed

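ChIP-seq for H3K36me2 was analysed from 3 lists of regions: one per ChIP replicate and a combined list. The authors deposited, for each region, a start, an end and a score; per the file headers, positions refer to FlyBase r5. The submitters' processing notes name Bowtie 0.12.7. Neither labels nor headers name the region caller, its threshold, the input used or how the replicates were combined. The input libraries had no list analysed here. Regions named depletion were left out.

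Gaps were counted between edges, and overlap between lists from 1 bp. A member's replicate score is that of the replicate cluster with the largest overlap. Blocks were 1 Mb by midpoint. Shares carry 95% Wilson intervals, which treat clusters as independent. Correlations are descriptions. The interval functions were tested on simulated data. The members and the rules for naming regions (highest scores, longest, shortest, most isolated, largest groups, densest and sparsest blocks, highest scores in neither replicate) were chosen with earlier results of these data known. Python 3.11.15, numpy 2.4.6, pandas 2.3.3, SciPy 1.17.1 and matplotlib 3.10.9 were used. Alternatives changed the length limit, the overlap, the distances, the block size and the list.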

Additional observations from a re-analysis of the deposited data

How the results depend on the processing

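The replicates share numbers with the input samples. No paired analysis was possible because the inputs had no list analysed here and the results come from no test. The count of members stayed within 1.5 times its value under every alternative tried, between 788 with clusters under 1 kb apart merged and 1073 with the depletion regions kept. The covered share of 16.1% fell to 10.1% with the highest 50% of the list by score. The share in both replicates, 70.3%, was 98.3% for the highest 50% of members by score, 76.8% without members shorter than 1301 bp and 62.7% with a length limit of 5000 bp; an overlap of at least 50% of the member gave 69.1%. The median gap of 1456 bp became 1572 bp with members alone as neighbours and 2528 bp after merging. Isolated members made up 6.64% at 10 kb, 1.12% at 50 kb and 4.30% with members alone as neighbours, and grouped members 28.4% with links of 2 kb and 76.7% with links of 10 kb. The ratio of the densest to the sparsest block was 9.20 in blocks of 500 kb. The score difference between isolated and grouped members, 0.472, was 0.209 at 10 kb, 0.219 at 50 kb and 0.302 among members of 3 kb to under 6 kb, and kept its sign in each; these alternatives were added after the data were seen. With each replicate list taken alone, the covered share was 14.5 to 14.8%, the median gap 1801 to 1829 bp and the isolated share 3.80 to 4.96%. The grouped share was then 48.3 to 50.6% and the block ratio 4.24 to 4.56. The share overlapped and the score difference kept the members and groups of the combined list, which belongs to both replicates. Each replicate list overlapped 78.9 to 79.5% of those members, a share that cannot fall below the share in both. The score difference in each replicate was 0.366 to 0.578. Of the replicate scores of named members, 33 of 68 lay within the replicate SD of the combined score. Fewer or other clusters enter most of these alternatives, and beyond that the cause was not tested. The depth is unknown, so a cluster missing from a list may lie below its threshold.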

Other observations

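The combined list named 4 regions of the same segment of 3L as depletion, with scores between -0.0226 and -0.0043. Of these, 3 overlapped an enriched cluster of replicate 2, with scores of 0.127 to 0.136 there, and 0 lay in a replicate 1 cluster. Apart from the groups described above, the largest replicate difference in group membership was at 12384634 to 12424869, where replicate 1 held 2 of 8 members and replicate 2 held 6. The other 4 of the 7 groups with a difference of 3 or more members each differed by 3. Replicate 1 held more members at 3113145 to 3156456 (9 and 6), 10853287 to 10875422 (5 and 2) and 17539818 to 17569440 (6 and 3), and replicate 2 held more at 5760849 to 5778682 (5, and 2 in replicate 1).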
